A study of Bos taurus with 6 samples.

Results

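The 2 microRNA genes described here, bta-mir-124a-2 and bta-mir-2284p, were chosen from the authors' deposited table of differentially methylated regions, as rows that carry these gene names. They are 2 of the 4 rows named for a microRNA, among 334 regions in all. For each gene, the cytosines within 50000 bp on either side were taken, together with the listed region. The rule therefore used the Creole and Spanish means of the listed regions, whose values are given as a description and without a test. In build UMD3.1, bta-mir-124a-2 lies on chromosome 14 (30815411 to 30815521, 111 bp) and bta-mir-2284p on chromosome 19 (63467706 to 63467782, 77 bp).

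DNA came from blood of 6 adult male cattle, 1 library for each animal, and was read by reduced representation bisulfite sequencing. In this assay the enzyme MspI cuts the genome at CCGG sites, short fragments are kept, and bisulfite turns unmethylated cytosines into bases that read as thymine. The Creole group held 1 animal of the breed Sanmartinero (Creole 1) and a pair of the breed Costeno con Cuernos (Creole 2 and Creole 3). The Spanish group held a Retinta (Spanish 1), an Asturiana de los Valles (Spanish 2) and a Lidia animal (Spanish 3). Different DNA extraction kits served the 2 groups, and the lane mark of the libraries also coincided with the group. Kit, lane mark and group therefore cannot be told apart, and 4 of the 5 breeds are 1 animal each. The question was whether blood methylation differs between Creole cattle and the Iberian breeds they descend from. Blood is a mixture of cells, and a difference in cell makeup cannot be told apart from a difference within a cell type.

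MicroRNAs are short RNAs cut from hairpin transcripts, and they guide Argonaute proteins to messenger RNAs that are then repressed. The miR-124 family is known as the most abundant microRNA of neurons, where it represses transcripts of other cell types. Outside the nervous system its genes are known to be kept off by the repressor REST, and their CpG islands are known to gain methylation in tumours. The miR-2284 family is a large group of similar genes known from cattle and other ruminants, most of whose targets are not well studied. CpG islands at gene starts are mostly unmethylated in mammalian tissues, while single CpGs between genes are mostly methylated. RefSeq genes of ARS-UCD2.0, a later assembly that served here for gene names and order, included 3 miR-124 genes, 43 genes named miR-2284 and 148 of the related name miR-2285. In the gene order of that assembly, bta-mir-124a-2 is followed by BHLHE22, a transcription factor gene of neurons. There bta-mir-2284p lies between PRKCA, which encodes a protein kinase C, and CACNG5, a subunit of calcium channels and glutamate receptors.

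A cytosine counted as measured in a library when it had at least 10 read calls there. Total calls were 40986296 to 84537374 per library. Around bta-mir-124a-2, 242 positions were measured in at least 1 library, and around bta-mir-2284p 410. No position at either gene was measured in more than 4 of the 6 libraries, and 127 of the 242 and 227 of the 410 were measured in 1 library only. Creole 1 measured 160 cytosines at bta-mir-124a-2 and 210 at bta-mir-2284p, the most at each gene, and Creole 3 measured 23 and 44. Neither hairpin itself was read: no cytosine within either gene had a call in any library. The nearest measured cytosine lay 747 bp from bta-mir-124a-2 and 5314 bp from bta-mir-2284p.

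The listed region of bta-mir-124a-2 was placed on the promoter, 1299 bp from the gene start and inside a CpG island (30813912 to 30814668), by the authors' deposited table (chromosome 14, 30814046 to 30814112). The authors' deposited table gave 9 CpGs over 67 bp, 65% for Creole and 23% for Spanish animals. By size of difference it ranked 222 of the 236 regions higher in Creole, among the smaller differences of the table. Recomputed from the calls, Creole 1 read 50.2% (95% Wilson interval 43.5 to 57.0%, 205 calls). Creole 2 read 77.8% (Wilson interval 72.6 to 82.2%, 288 calls). Spanish 3 read 11.1% (Wilson interval 9.16 to 13.4%, 837 calls). The 2 Creole libraries were above the single Spanish library, and their own mean was 64.0% ± 19.5 (SD, n = 2). Spanish 2 had 6 calls on each of 8 cytosines, all unmethylated, which is below the minimum. Creole 3 and Spanish 1 had no call there. The Wilson intervals cover counting error only. All cytosines of a fragment share the same reads and the reads were amplified by PCR, so the intervals may be too narrow.

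Within this region the cytosines did not move together. In Creole 1, 5 of the 9 cytosines read 90.9 to 91.3% and the other 4 read 0%. In Creole 2, 7 read 100% and 2 read 0%. Spanish 3 read 0% at 8 cytosines and 100% at the first one (30814046), where both Creole libraries read 0%. The second cytosine (30814048) was at 0% in all 3 libraries. The level of 50.2% in Creole 1 was thus a mixture of cytosines near 91% and at 0%, each with 22 or 23 calls, and no cytosine read near 50%. The same fragment went on outside the listed limits, with 16 cytosines over 119 bp. Over all 16, Creole 1 read 39.8%, Creole 2 read 56.3% and Spanish 3 read 6.25%. On the 5 cytosines just below the listed region (30814011 to 30814037), Creole 1 read 18.6%, Creole 2 read 40% and Spanish 3 read 0%. The 2 Creole libraries were methylated at different cytosines there: Creole 1 at 30814011 (20 of 22 calls) and Creole 2 at 30814032 and 30814037 (32 of 32 calls each).

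**Figure D1:**
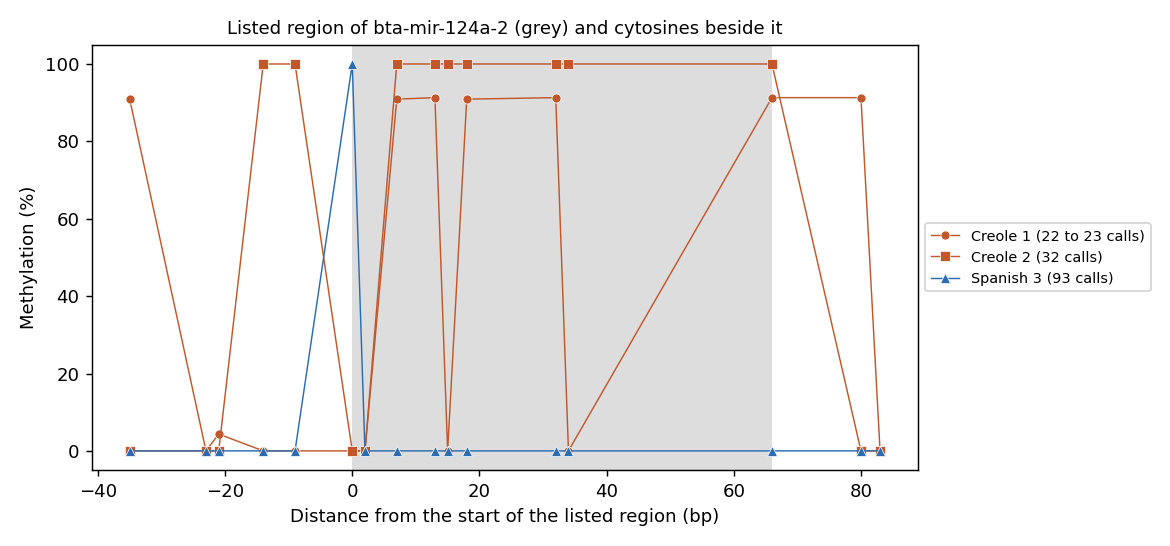
Methylation in percent at each measured cytosine of the listed region of bta-mir-124a-2 (grey) and beside it, against distance in bp from the start of that region. Points are single cytosines of Creole 1, Creole 2 and Spanish 3, joined within a library. The libraries switch between 0% and 91% or 100% from one cytosine to the next, and the first cytosine of the region is at 100% in Spanish 3 and at 0% in both Creole libraries.

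The rest of the island was read in fewer libraries. At 14 cytosines between 30814546 and 30814664, the measured stretch nearest to the gene, Creole 1 read 77.7% (Wilson interval 72.2 to 82.4%, 256 calls) and Spanish 3 read 28.5% (26.7 to 30.3%, 2447 calls). In Spanish 3, 5 of those 14 cytosines had 83 or 84 methylated of 180 or 181 calls, 1 had 97 of 181 and 1 had 181 of 181, while the other 7 had none. Creole 1 also measured the other strand at 13 of these CpGs, and 8 of the 13 differed by 50 points or more between strands. In 100 bp bins, which hold both strands of Creole 1, the libraries stood closer. Creole 1 read 47.3% and Spanish 3 32.3% in the bin 30814501 to 30814600, and 53.1% and 26.6% in the bin 30814601 to 30814700. Spanish 1, the only library that measured 9 cytosines from 30814150 to 30814298, read 20% there, with 9 of 10 calls methylated at 2 of them and none at the other 7. No library of the other group could be set beside that stretch.

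Of the 242 measured positions around bta-mir-124a-2, 218 lay within the 10 kb below the gene. Over the cytosines each library measured in these 10 kb, outside the listed region, the mean level ran from 2.79% (Creole 3) to 32.5% (Creole 1) among the Creole animals, with Creole 2 at 16.6%. Spanish 3 had 11.2%, Spanish 2 had 16.0% and Spanish 1 had 19.2%. The groups overlapped, and the libraries did not measure the same cytosines.

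A stretch of 12 cytosines (30807061 to 30807175) was measured in 4 libraries. Creole 1 read 8.27%, Creole 2 read 37.3%, Spanish 2 read 7.31% and Spanish 3 read 0%. On these cytosines Creole 2 was higher than the other libraries, but the other strand of the same CpGs read otherwise. At 7 of its cytosines (30807080 to 30807174), Spanish 3 read 43.2% (118 calls) and Creole 1 read 28.6% (70 calls). At 5 more that Spanish 3 alone measured (30807060 to 30807167), it read 20.7% (82 calls). Of the 12 cytosines in Creole 2, 9 neighbouring ones had 86 or 87 methylated calls of 175, and the other 3 had none of 174 or 175. At 6 cytosines from 30806469 to 30806574, Creole 1 read 57.0% (Wilson interval 50.2 to 63.6%, 207 calls) and Spanish 3 read 1.51% (0.845 to 2.68%, 729 calls). At 18 cytosines from 30805568 to 30805665 the 2 libraries measured were both low, with 11.7% in Creole 1 and 5.56% in Spanish 2. At 15 cytosines from 30805962 to 30806075, Creole 1 read 7.77% and Spanish 3 read 0%. From 30806333 to 30806470, 19 cytosines measured in Creole 2 alone read 0% over 1819 calls. A single cytosine, 30806744, read 33.3% in Creole 1, 0% in Creole 2 and 73.7% in Spanish 2.

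**Figure D2:**
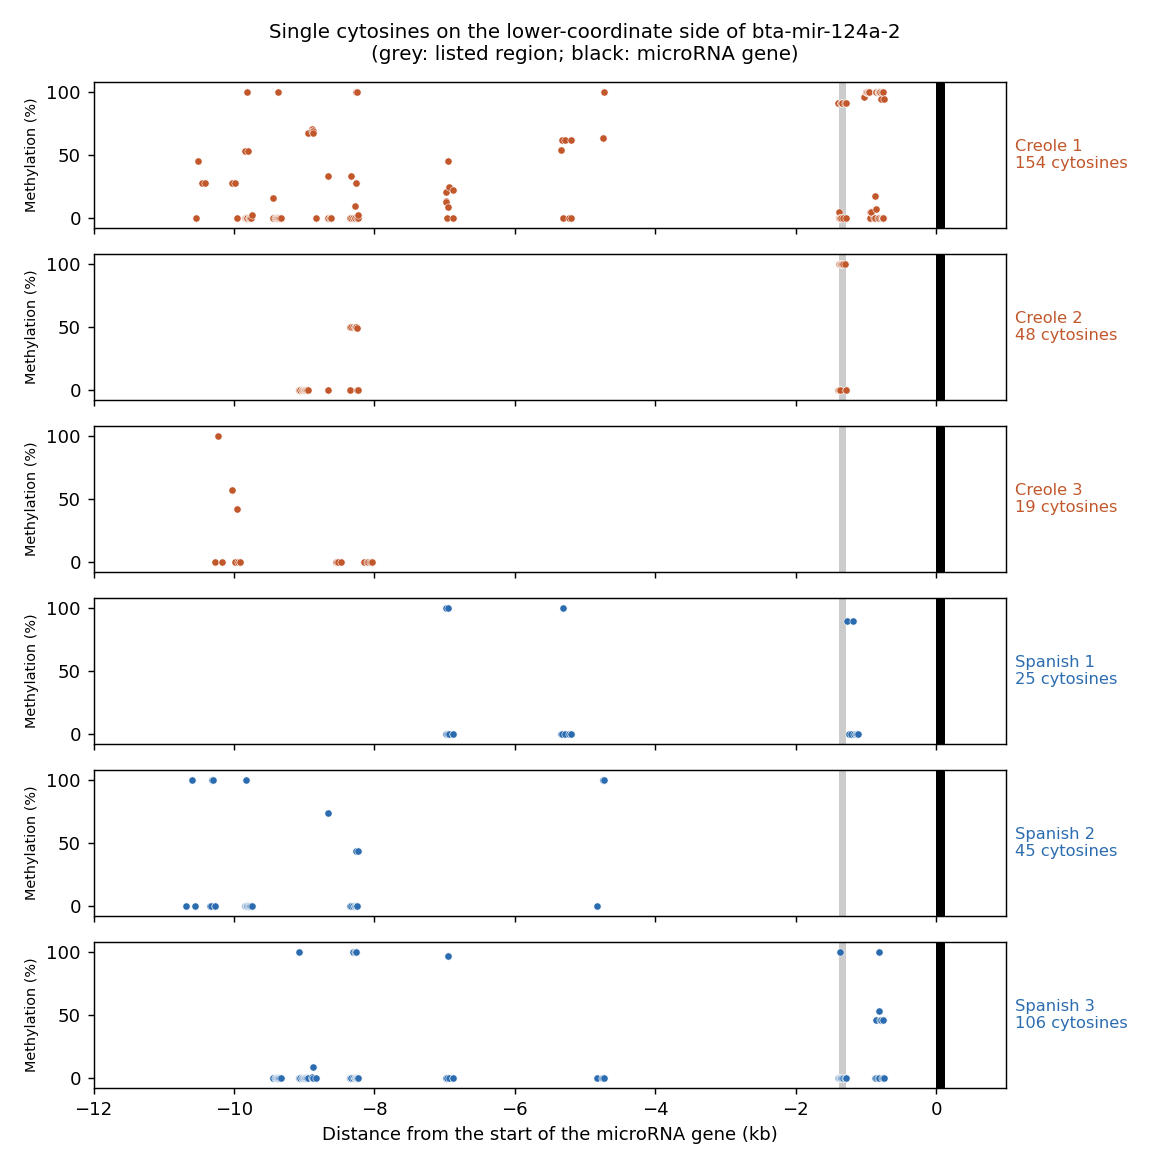
Methylation in percent at single measured cytosines, against distance in kb from the start of bta-mir-124a-2, with 1 panel for each library (Creole in orange, Spanish in blue). Most points lie at 0%, the listed region (grey) holds points of 3 libraries only, and Creole 1 has the most cytosines.

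The measured stretch farthest below the gene was 38442 bp away (30776823 to 30776969, 4 cytosines). Creole 1 read 45.9% there and Creole 3 read 42.5%, while Spanish 1 read 75% and Spanish 2 read 57.4%. Both Spanish libraries were above both Creole libraries, the opposite direction from the listed region. Over the genome, 23.6% of 16032 stretches measured in 2 or more libraries per group had no overlap. At 30776823 and 30776863 both Spanish libraries read 100% and the Creole libraries 34.9 to 72.7%. At 30776969 only Spanish 1 had methylated calls. At 30776886 the order differed, with Creole 3 at 100%, Creole 1 at 56.8%, Spanish 1 at 57.1% and Spanish 2 at 29.4%. Over the stretch, the Creole mean was 44.2% ± 2.44 and the Spanish mean 66.2% ± 12.5 (SD, n = 2 each). The difference of -22.0 points did not pass limma's test (adjusted p = 0.953).

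The listed region of bta-mir-2284p lay 40065 bp below the gene, outside it, and 2027 bp from a CpG island, per the authors' deposited table (chromosome 19, 63427552 to 63427641). The authors' deposited table gave 8 CpGs over 90 bp and means of 13% in Creole and 90% in Spanish animals, the rank 13 by size of 98 regions higher in Spanish animals. Recomputed, Creole 1 read 9.20% (Wilson interval 6.26 to 13.3%, 261 calls) and Spanish 2 read 99.5% (97.3 to 99.9%, 208 calls). Spanish 1 had 6 calls on each of the 8 cytosines, all methylated, below the minimum. Creole 2, Creole 3 and Spanish 3 had no call there. The Creole mean thus rested on 1 animal and, at the minimum of 10 calls, so did the Spanish mean.

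Unlike at bta-mir-124a-2, the cytosines of this region were alike within each library. Creole 1 had 3 methylated calls of 32 or 33 at each of the 8 cytosines, or 9.09 to 9.38%. Spanish 2 had 26 of 26 at 7 and 25 of 26 at the eighth. A ninth cytosine, 3 bp beyond the end of the listed region (63427644), read 0% in both libraries, with 0 of 32 calls in Creole 1 and 0 of 26 in Spanish 2.

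The nearest stretch measured in both groups differed in the opposite direction, in the same pair of animals. It lay 3156 bp from the listed region (63424296 to 63424396, 10 cytosines). There, 80.9% of 282 calls were methylated in Creole 1 (Wilson interval 75.9 to 85.0%), and Spanish 2 read 0% (0 to 0.706%, 540 calls). In Creole 1, 8 of the 10 cytosines were fully methylated and the other 2 had no methylated call. With 1 library for each group, neither difference could be set against the spread between animals.

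**Figure D3:**
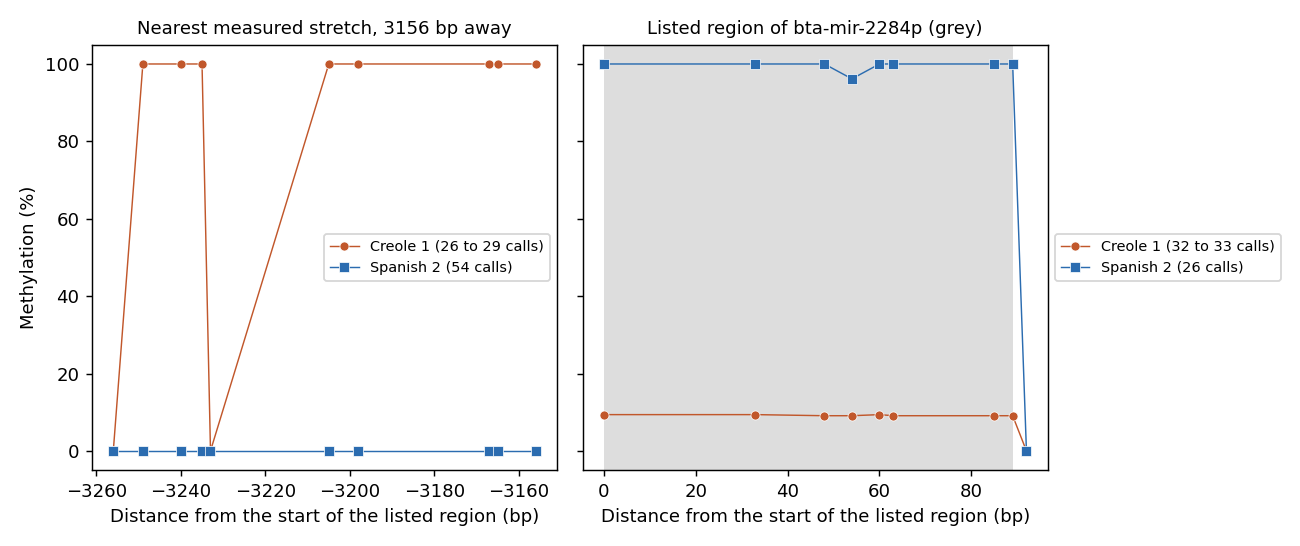
Methylation in percent at each measured cytosine, against distance in bp from the start of the listed region of bta-mir-2284p, for the nearest measured stretch (left) and the listed region (right, grey). Creole 1 is high on the left and near 9% on the right, and Spanish 2 is at 0% on the left and near 100% on the right.

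Over the rest of the surroundings of bta-mir-2284p most measured cytosines were methylated, and some stretches were low. At 63443179 to 63443271, Creole 1 read 93.9%, and Creole 2, Spanish 1 and Spanish 2 all read 100% over 4 cytosines. At 9 cytosines from 63510658 to 63510802, Creole 3 and Spanish 2 both read 100%. Other stretches varied within a group. At 63510316 to 63510448, Creole 1 read 58.8% and Creole 3 read 0% over 549 calls, while Spanish 2 read 39.3% and Spanish 3 read 64.3%. The Spanish 2 level lay between the 2 Creole levels and the Spanish 3 level above both. At 63473096 to 63473229, the measured stretch nearest to the gene, Creole 3 read 83.3%, Spanish 1 read 16.7% and Spanish 2 read 79.4%. Spanish 1 stood apart from Spanish 2 by 62.7 points, more than the difference of 35.3 points between the group means.

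In bins of 1000 bp, which set different cytosines of the libraries side by side, the differences around bta-mir-2284p went both ways. In the bin 63494001 to 63495000, Creole 2 read 26.2% (61 calls) and Creole 3 read 20.1% (179 calls), and Spanish 3 read 80% (70 calls), a difference of -56.8 points. In the bin 63446001 to 63447000, Creole 1 read 0% over 81 calls and Spanish 3 read 49.3% over 768 calls. In neither bin did the 2 groups share a measured cytosine, so no stretch was compared there. In the bin 63473001 to 63474000 the Creole mean was 25.1 points higher. At bta-mir-124a-2 the bin 30806001 to 30807000 had a Creole minus Spanish difference of -31.9 points, and the Spanish 2 level in it, 73.7%, came from 1 cytosine.

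**Figure D4:**
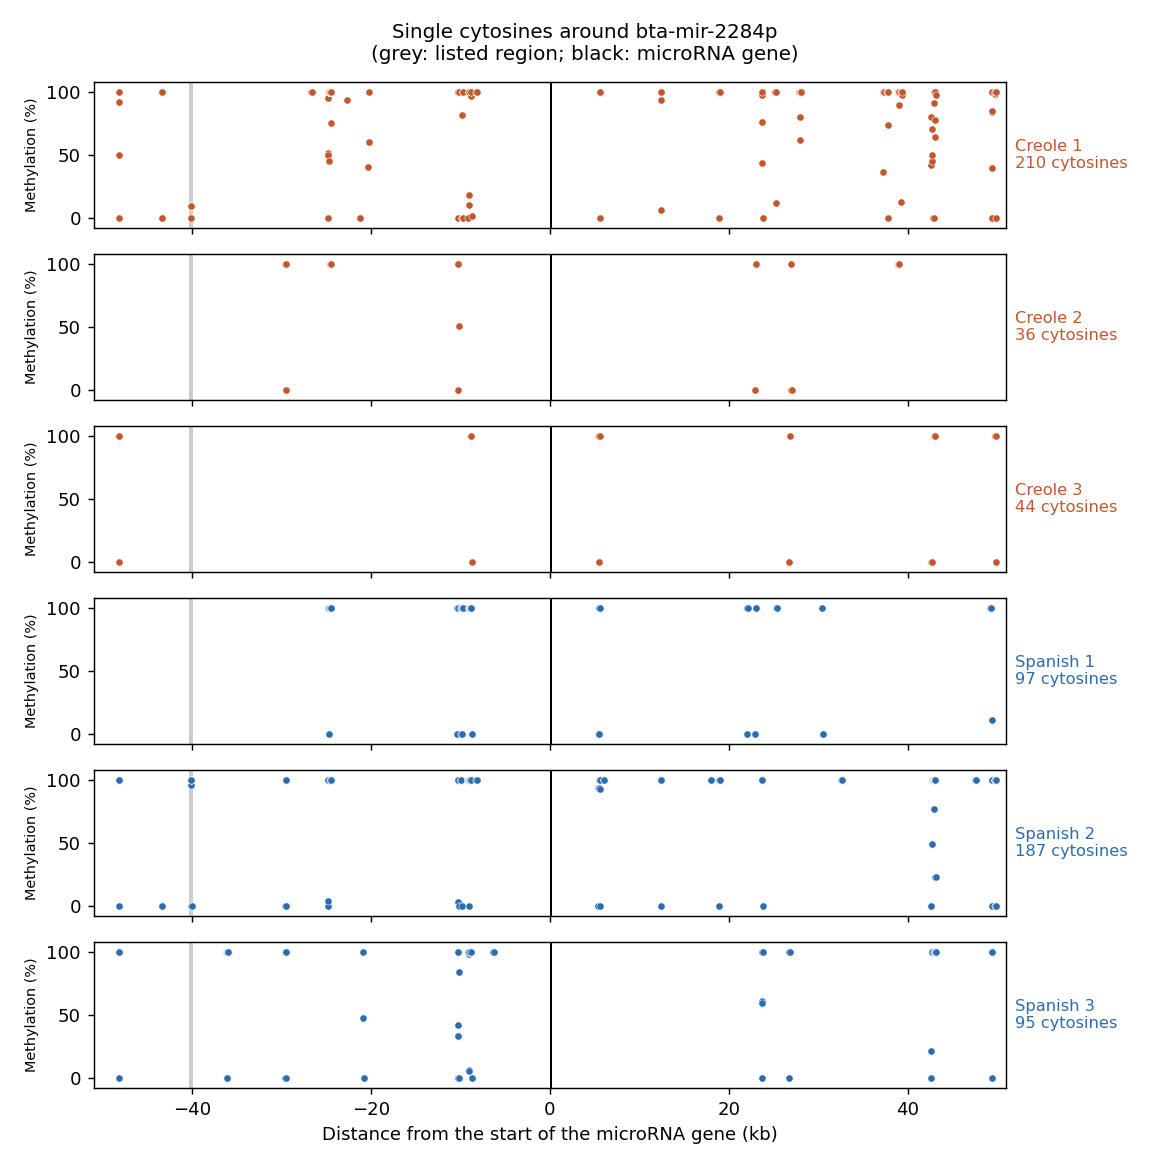
Methylation in percent at single measured cytosines, against distance in kb from the start of bta-mir-2284p, with 1 panel for each library (Creole in orange, Spanish in blue; grey, listed region). Points lie mostly at 100% with single points at 0%, and the 2 libraries with points in the listed region are Creole 1 and Spanish 2.

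The level of the 2 genes' surroundings, which the rule did not use, differed in all 6 libraries. Outside the listed regions, the mean over measured cytosines was 11.2 to 33.2% around bta-mir-124a-2 and 65.9 to 82.0% around bta-mir-2284p. The level around bta-mir-2284p was higher in 6 of 6 libraries, by 56.0 points on average (SD 8.09), with an exact two-sided permutation p of 0.0313 over sign changes, the smallest that 6 libraries can give. Over all chromosomes the same mean was 50.8 to 57.2%. So, at the measured cytosines, bta-mir-124a-2 lay below, and bta-mir-2284p above, the genome mean of every library. Of the 242 positions at bta-mir-124a-2, 218 lay in the 10 kb below the gene, among them cytosines of the listed fragment. Farther below, library means were 25.5 to 40% at 10 to 20 kb (18 positions) and 42.5 to 75% at 30 to 40 kb (4 positions). The 2 positions above the gene read 71.4% in Creole 1. The mean at bta-mir-124a-2 thus stands mostly for those 10 kb. The libraries did not measure the same cytosines, and the test compares these 2 places only. It does not bear on the groups or on microRNA genes in general.

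Group differences outside the listed regions were read from stretches, sets of at least 3 cytosines measured in the same libraries with gaps of at most 100 bp. Around bta-mir-124a-2, 11 stretches were measured in both groups: 3 were at least 25 points higher in Creole, none was at least 25 points higher in Spanish libraries, and 8 differed by less. Around bta-mir-2284p, 3 of 22 were at least 25 points higher in Creole and 4 at least 25 points higher in Spanish libraries. Over the genome, 14.9% of 121705 such stretches differed by at least 25 points, 7.03% higher in Creole and 7.89% higher in Spanish libraries. The shares here were 27.3% (3 of 11) and 31.8% (7 of 22), but the counts are few and neighbouring stretches share animals. Of the 3 at bta-mir-124a-2, 2 lay in the island of the listed region. Of these 2, the stretch 30814011 to 30814037 (29.3 points) lay 9 bp from that region, in the same fragment and libraries. It is therefore not apart from the choice of the gene, and no excess over the background is read from these shares. Differences of 50 points or more were seen in 1 of the 11 and 1 of the 22, against 3.19%. The median difference was 7.77 points at bta-mir-124a-2 and -0.0845 points at bta-mir-2284p, against 0 over all stretches.

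Much of this rested on Creole 1. It was the only Creole library in 8 of the 11 and 11 of the 22 stretches. Over all chromosomes it also measured the most, 1604013 cytosines against 505231 in Creole 2 and 370409 in Creole 3. Genome shares for the counts with Creole 1 alone or without it were not computed, and nothing is read from these counts. Without Creole 1, 3 stretches remained at bta-mir-124a-2, with 2 at least 25 points higher in Creole, among them the stretch beside the listed region. At bta-mir-2284p 11 remained, with 2 higher in Creole and 1 higher in Spanish libraries by that margin. Within a group the spread could be as wide. Of the stretches measured in at least 2 Creole libraries, 1 of 4 at bta-mir-124a-2 and 1 of 7 at bta-mir-2284p ranged over 25 points or more, against 19.8% over the genome. For Spanish libraries these were 0 of 3 and 3 of 10, against 17.4%.

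**Figure D5:**
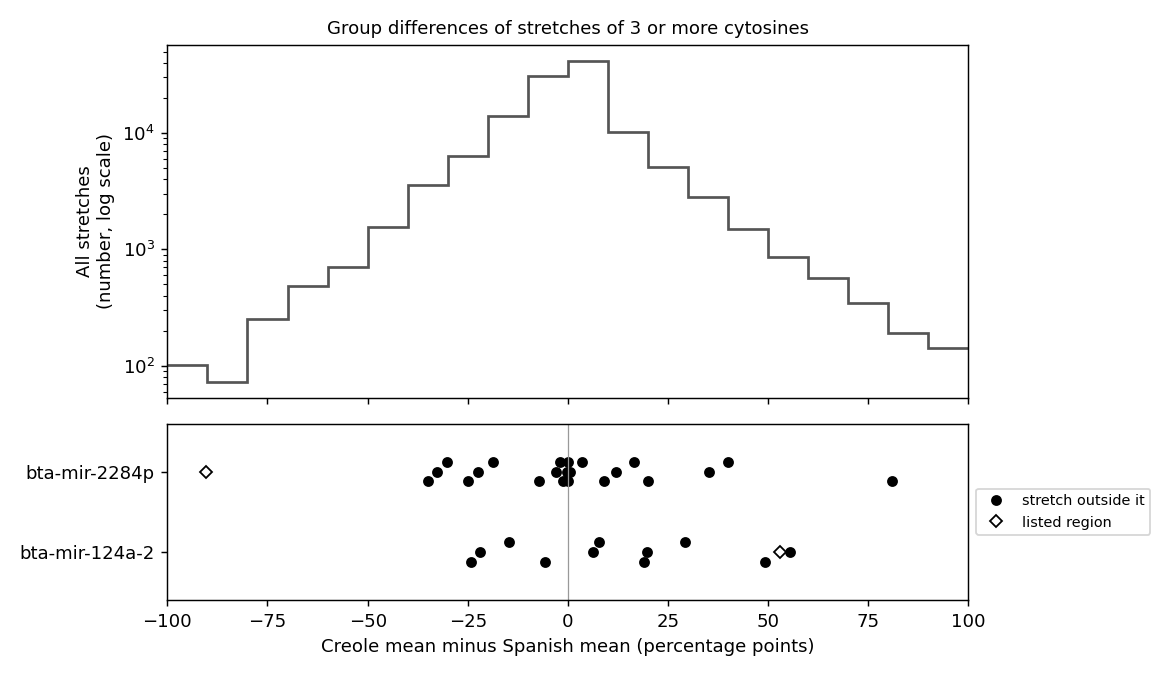
Creole mean minus Spanish mean in percentage points for all stretches outside listed regions (top, number of stretches on a log scale) and for the stretches around bta-mir-124a-2 and bta-mir-2284p (bottom, circles; diamonds mark the listed regions). The stretches of bta-mir-2284p spread on both sides of 0, from -34.8 to 80.9, and the 3 largest positive values of bta-mir-124a-2 lie between 29.3 and 55.5.

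No test across the genome called a difference at either gene. Of 4702 windows of 1000 bp covered in all 6 libraries, edgeR's quasi-likelihood test called 0% at an adjusted p of 0.05, while 237 had an unadjusted p below that value. Its likelihood ratio test called 58 and limma called 1. No such window lay around bta-mir-124a-2 and 1 lay around bta-mir-2284p (63458001 to 63459000). Over 4 shared cytosines its level was 74.9% ± 0.144 in the Creole group and 75% ± 0 in the Spanish group (SD over 3 libraries each), from 16 to 408 calls a library. The difference of -0.113 points did not pass edgeR's quasi-likelihood test (adjusted p = 1). The level of 75% came from 3 cytosines near 100% and 1 near 0% (63458981), in each of the 4 libraries with at least 10 calls at them. With at least 10 calls in each library over the whole window, it was the only window at either gene in which all 6 animals could be compared. Creole 2 had 16 calls and Spanish 2 had 20 over the 4 cytosines, fewer than 10 at each cytosine. With at least 5 calls over the window, 1 window lay at bta-mir-124a-2 and 2 at bta-mir-2284p, and edgeR called none of them.

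Where at least 2 libraries of each group were measured, limma was run on stretches, and called 0% of 16032 (890 at an unadjusted p under 0.05). The 2 such stretches at bta-mir-124a-2 had no overlap between groups, and neither did 1 of the 4 at bta-mir-2284p, where 23.6% of the stretches of the genome had none. None of these 6 stretches had group means 25 points apart, against 7.67% over the genome, and their adjusted p was 0.953 to 1.00 by limma. In bins of 100 bp, limma called 0% of 67282, and 3382 had an unadjusted p below 0.05. Of the 4 bins tested at bta-mir-124a-2 and 14 at bta-mir-2284p, 1 at bta-mir-124a-2 (30807001 to 30807100) had an unadjusted p of 0.0195 (adjusted p = 0.912 by limma), with 10.3% in Creole 1, 33.2% in Creole 2 and 0% in Spanish 2 and Spanish 3. Group means were 25 points or more apart in 0 of the 4 and 2 of the 14 bins, against 21.2% over the genome. In bins of 1000 bp, where limma called 0% of 47557 (2291 at an unadjusted p under 0.05), this held for 1 of 4 and 1 of 7, against 12.9%.

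Cytosines outside the listed region were also averaged over the 100 bp bins that 2 or more libraries of each group measured. Creole minus Spanish was -1.26 points at bta-mir-124a-2 (5 bins) and 0.291 points at bta-mir-2284p (14 bins). Of the 5 bins, 1 (30814101 to 30814200) overlapped the listed region and entered with its other cytosines, some of them from the listed fragment. No bin was measured in all 6 libraries, so the permutation test planned over library means had no value, and the sign changed with the bins that entered.

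Calls at single cytosines were mostly all or none. Around bta-mir-124a-2, 66.3 to 91.8% of the cytosines of a library had only methylated or only unmethylated calls, and around bta-mir-2284p 74.3 to 100%. Over the genome the share was 68.6% in Creole 1 and 87.2 to 91.7% in the other 5 libraries. Of the positions measured in 3 or more libraries, 24.3% over the genome had levels that ranged over 50 points or more. This held for 19 of 42 around bta-mir-124a-2 (45.2%) and for 22 of 56 around bta-mir-2284p (39.3%). The 42 include the 16 cytosines of the fragment with the listed region, which was chosen for its difference between these libraries. The share of 45.2% is therefore not apart from that choice, and nothing is read from it. At bta-mir-124a-2, 8 of the 42 (19.0%) read 5% or less in every library that measured them and none read 95% or more. At bta-mir-2284p, 5 (8.93%) read 5% or less and 23 (41.1%) read 95% or more. Over the genome, 27.9% of such positions read 5% or less and 26.5% read 95% or more.

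Several cytosines at the end of a methylated stretch read 0% in every library that measured them. One lay at 63419588, beside 3 cytosines with methylated calls, with 0 of 36, 50, 45 and 44 calls in Creole 1, Creole 3, Spanish 2 and Spanish 3. Another lay at 63438241, with 0 of 71 calls in Creole 2, 0 of 23 in Spanish 2 and 0 of 60 in Spanish 3. In Spanish 3 the partner strand of that CpG was methylated in 56 of 56 calls, and at the other end of the stretch (63438141) the strands read 61 of 61 and 0 of 54. Per the labels, cut ends were filled in with new bases before adapters were added. The part of this step in these values was not tested. In the stretch of 4 cytosines at 63419498 to 63419588, Creole 3, Spanish 2 and Spanish 3 all read 75%, with 3 cytosines at 100% and this one at 0%.

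Names in the deposited table were also matched to the lists of the design. By symbol, 94 of 21666 protein-coding RefSeq genes (0.434%) and 4 of 1032 microRNA genes (0.388%) had a listed region. Of 13 genes of microRNA processing, such as DICER1 and AGO2, and 18 known regulators and targets of miR-124, such as REST and PTBP1, none had a listed region under its own symbol. The other 2 miR-124 genes and the miR-2285 genes had none either, and bta-mir-2284p was the 1 listed gene of the 43 named miR-2284. Of 13 markers of blood cells, CD5 of T cells was the 1 found in the table. Beside these shares, nothing is read from the counts of the lists.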

How the data were processed

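Per the submitters' processing notes, Trim Galore, Bismark, methylKit and the build UMD3.1 were used. How each was set, how PCR duplicates were treated and what called the regions is not given in the sources used here. The deposited coverage files give counts of methylated and unmethylated calls per cytosine, not normalized, with strands apart. The deposited percent column equalled the ratio of these counts in every line. The authors' deposited table gives group means as a fraction (printed here as percent), their difference and an area statistic, both deposited as a score. The statistic was not used. The table held 0 columns of single samples.

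Groups follow the breed labels. Each library's level was taken from summed calls at cytosines with at least 10 calls, on chromosomes only, except in the windows tested with edgeR. There, cytosines with any call in all 6 libraries entered. Windows of 1000 bp with 3 cytosines covered in all 6 libraries and 10 calls in each were tested with edgeR 4.0.16 (R 4.3.3). Stretches and bins with missing libraries were tested with limma 3.58.1 after 2 was added to both kinds of call and their log2 ratio taken, a step chosen after the data were seen. Benjamini-Hochberg adjustment ran over the genome. Both fits were tested on simulated data. Python 3.11.15, pandas 2.3.3 and scipy 1.17.1 were used.

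The genes, lists and tests were chosen with earlier results of these data known. Loci were named by a rule: both listed regions, bins measured in 2 or more libraries per group, the measured stretch nearest to each gene, and the largest differences. Others, among them single cytosines, were chosen after their values were seen. Alternatives changed the read minimum, bin and window size, grid, test, strand merging, flank, and left out each library.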

Additional observations from a re-analysis of the deposited data

How the results depend on the processing

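No 100 bp bin outside the listed regions was measured in all 6 libraries at either gene, so the exact permutation test planned for the flanks could not be run, nor with a read minimum of 5 or 20, bins of 1000 bp, merged strands or a flank of 20000 bp. The value given instead demands 2 or more libraries per group. The Creole minus Spanish difference was then -1.26 points at bta-mir-124a-2 (5 bins, 1 overlapping the listed region) and 0.291 points at bta-mir-2284p (14 bins). With 1 or more per group it was 6.06 (25 bins) and -2.05 points (47 bins). Over single cytosines, added after the data were seen, it was 8.99 and -11.6 points with 2 or more libraries per group and 14.3 and 2.87 points with 1 or more. The sign thus depended on which cytosines entered, at both genes. Leaving out 1 library gave a value at bta-mir-2284p only, from 1 bin, between -0.815 points (without Creole 2) and 3.52 points (without Creole 3). The listed difference of bta-mir-124a-2 was 52.9 points, and 39.1 to 66.7 points with 1 Creole library left out. That of bta-mir-2284p was -90.3 points and could not be computed without Creole 1 or without Spanish 2. That of bta-mir-124a-2 could not be computed without Spanish 3, its only measured Spanish library. Both kept direction under every other setting that gave a value. These settings reuse the same libraries, and the regions were chosen for their difference, so nothing is read from the kept direction. Windows called over the genome numbered 0 under edgeR's quasi-likelihood test with every setting, 58 under its likelihood ratio test and 1 under limma. At bta-mir-2284p 0 of the 1 or 2 windows tested were called, and a read minimum of 20 left none to test. At bta-mir-124a-2 only a read minimum of 5, leaving out Creole 3 and leaving out Spanish 1 gave a window, 1 each, and it was not called. No paired analysis was possible because replicate numbers were given in accession order and tie no Creole animal to a Spanish one. Depth limits what could be seen: most positions were measured in 1 or 2 libraries.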

Other observations

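The deposited table names 2 further microRNA genes, which are outside the rule used above. The region assigned to bta-mir-2483 on the X chromosome (9194855 to 9194963) has means of 84% in Creole and 10% in Spanish animals in the authors' deposited table. Recomputed, 61.4% of 352 calls were methylated in Creole 1 (95% Wilson interval 56.2 to 66.3%). Creole 3 had 0 methylated of 300 calls, Spanish 1 had 0 of 247 and Spanish 3 had 0 of 546. The 2 measured Creole libraries therefore read differently, and Creole 3, Spanish 1 and Spanish 3 all read 0%. The levels were not over the same number of cytosines: 25 in Creole 1, 12 in Creole 3 and 13 in each Spanish library. Whether the libraries read the same strand was not tested. The region assigned to bta-mir-1281 on chromosome 5 (112740160 to 112740214) has means of 68% and 11% in the authors' deposited table. There Creole 1 read 71.4% (Wilson interval 59.3 to 81.1%) from 63 calls, 9 at each of 7 cytosines, Spanish 1 read 0% over 49 calls and Spanish 3 read 0% over 392 calls.

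In the island of bta-mir-124a-2 the strands of single CpGs read differently in the same library. In Creole 1, 8 of the 13 CpGs between 30814551 and 30814664 differed by 50 points or more between strands. At the CpG 30814578 the strands read 0 of 30 and 18 of 18 calls, and at 30814648 they read 30 of 30 and 0 of 18. Around bta-mir-124a-2, 10 of 21 CpGs with both strands measured in Creole 1 differed by 50 points or more between strands (47.6%), and 4 of 12 in Spanish 3 (33.3%), against 24.7% and 22.9% of such CpGs over the genome in these libraries. Around bta-mir-2284p the count was 20 of 70 over all libraries (28.6%), against 23.9% over the genome. CpGs of 1 fragment share reads, so these counts are few independent fragments.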
